A study of Mus musculus with 9 samples.

Results

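The G2/M and mitotic spindle genes are 44 genes that act between the end of DNA replication and the separation of the daughter cells. They were chosen by symbol: the cyclins and kinases of mitotic entry, the spindle checkpoint, the chromosomal passenger complex, kinetochore and centromere proteins, mitotic kinesins, spindle and cytokinesis factors, and condensins. All 44 were among the 24930 gene symbols of the deposited table. All 44 also reached at least 1 FPKM in at least 3 libraries, the filter that left 12097 genes for testing. FPKM gives fragment numbers divided by transcript length and scaled per library, so levels of different genes can be set side by side.

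A dividing cell builds this machinery in a burst. Cyclin B with CDK1 drives entry into mitosis, kinetochores on each centromere bind spindle microtubules, and the checkpoint kinases hold the cell until every chromosome is attached. The anaphase-promoting complex, APC/C, then marks cyclin B and the inhibitor of chromosome separation for destruction, and kinesins and cytokinesis factors split the cell. The mRNAs of these genes are made mainly in G2 and mitosis under the control of the MuvB complex with B-MYB and FOXM1, so in a tissue their level follows how many cells are dividing. In the intestine, the dividing cells are the stem cells of the crypt base and the transit-amplifying cells above them, and β-catenin, the effector of WNT signals, is required to keep them dividing.

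Poly(A) RNA was measured in mouse intestinal crypt epithelium at days 8, 9 and 10 after induction, with 3 control libraries, 3 of mutant set A and 3 of mutant set B, so each group has 1 library per day. The series text sets control crypts against crypts in which 1 gain-of-function allele of β-catenin had been induced, which gives the study's question. Titles give set A as Bcathet and set B as Cdx2het_Bcathet, whereas the library names read CDX2HET_EXON3 for set A and EXON3 for set B. Which set also carries the Cdx2 allele is therefore in conflict in the labels. The sources used here do not give the Cre driver, the age of the mice or whether each library is 1 animal, so every p-value measures the spread between these libraries.

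Summed FPKM ran from 624923 to 755802 per library. From the smallest values, 1 FPKM was worth 16.8 to 19.1 fragments per kilobase. Over the longest transcript of each member in GENCODE M21, this gives about 271 to 6004 fragments in its lowest library. The counting error is then 1.29% to 6.07%. Shorter transcripts would give fewer fragments and a larger error. The epithelial markers, Epcam among them, summed to 5108 to 5858 FPKM. The day-9 library of set B stood apart: it lay at −19.1 on the first principal component of all tested genes, beside the controls at −21.6 to −22.7, with the other 5 mutant libraries at 2.57 to 30.0. That component held 43.5% of the variance. On the second component the library lay at −29.9, away from the controls at 5.96 to 14.9 and the other 5 mutant libraries at −10.5 to 6.36. It also had Xist at 0.1 FPKM and a sum of 41.7 FPKM over 4 Y-linked genes, against Xist at 27.0 to 39.4 and a Y-linked sum of at most 0.047 in the other 8 libraries. On the mitotic genes this library sat with the mutants.

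Comparing both mutant sets with control, 43 of the 44 mitotic genes had a lower mean level in the mutants, by 5.99% to 34.3% of the control FPKM. Ttk, the MPS1 kinase that starts the spindle checkpoint at unattached kinetochores, was the 1 member that passed the test over all genes, and it fell. Nek2, a centrosome kinase, was the 1 member with a higher mean. The median log2 fold change of the 44 was −0.24, beside −0.00 for all 12097 genes tested, of which 50.3% were negative. At an adjusted p of 0.05 in limma, 1 of 44 members passed, beside 0.645% of all genes in the lower direction (78 genes, with 62 or 0.513% higher) and 1.16% in either. In 25 of 44 members all 6 mutant libraries lay below the lowest control library, beside 7.37% of all genes tested, and no member had all 6 above control (5.19%). At an unadjusted p of 0.05, 33 members were lower, beside 10.8% of all genes. The members form a set of small differences in 1 direction, of which a single one passes alone. The counts are not 44 separate observations, since the members moved together between libraries. Among the controls, 38 of 44 were below the control mean at day 8 and 4 at day 9.

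**Figure D1:**
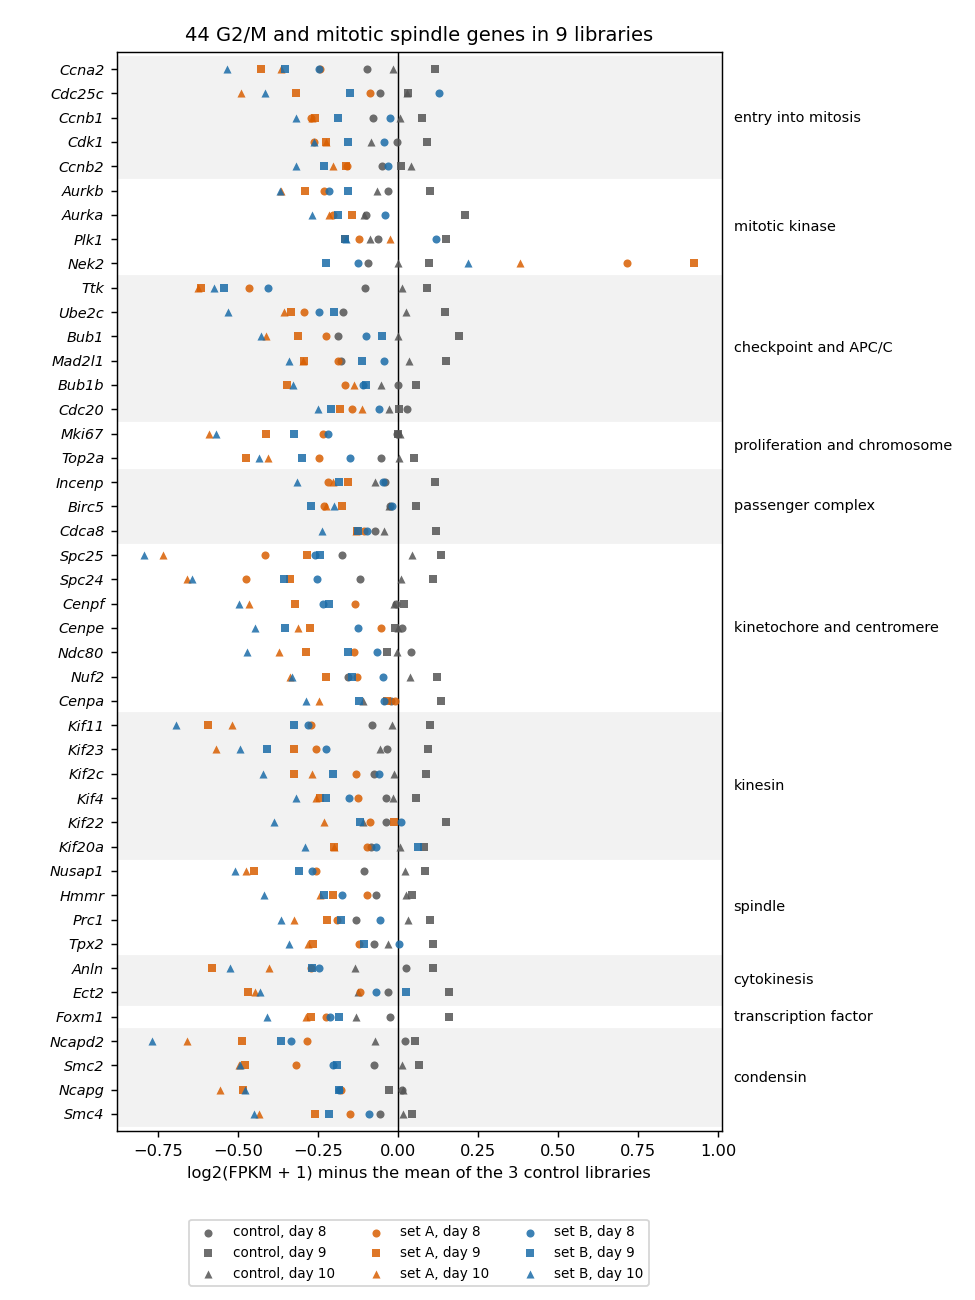
Each row is 1 of the 44 genes, ordered by role, and each point 1 library: log2(FPKM + 1) minus the mean of the 3 control libraries, with colour for the group and shape for the day. Most mutant points lie left of the control mean in nearly every row, and in 25 of the 44 rows every mutant point lies left of every control point. Day-10 triangles are often farthest left, and Nek2 is the row where the 3 set A points lie to the right.

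**Figure D2:**
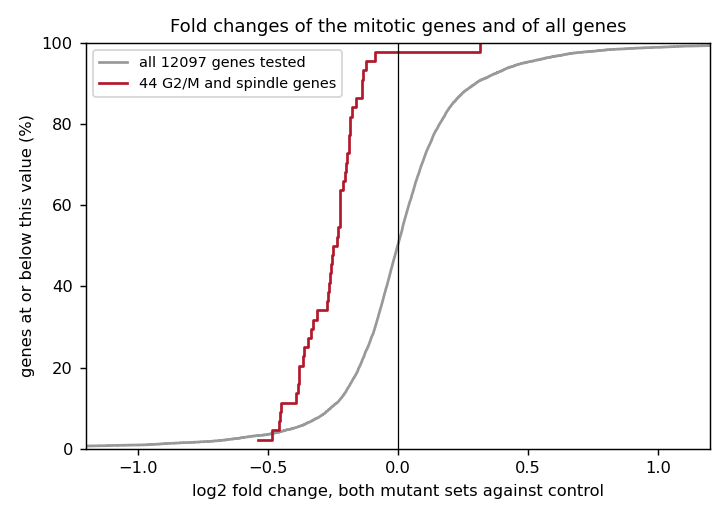
Cumulative share of genes (%) against the log2 fold change of both mutant sets over control, for the 44 mitotic genes and for all 12097 genes tested; the axis is limited to ±1.2. The median of the mitotic genes is −0.24 and that of all genes −0.00, and 42 of the 44 lie below the lower quartile of all genes at −0.12.

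Genes of this phase are known for a shared promoter architecture, the cell cycle genes homology region (CHR) near the transcription start, bound by MuvB complexes, with CCAAT boxes upstream of it, bound by the factor NF-Y. The RefSeq promoter table of build GRCm38.p6 held windows, 250 bases before to 50 after the start, for 35 of the 44 members. The CHR was searched as TTTGAA, as its reverse complement TTCAAA, and as the palindrome TTCGAA. The CCAAT box was searched as CCAAT and, for the other strand, as ATTGG. A CHR was present in 28 of 35 members (80.0%), beside 16.7% of the 9454 tested genes with a window. A CCAAT box was also in 28 (80.0%, beside 43.3%), at least 2 boxes in 20 (57.1%, beside 16.9%), and both motifs in 25 (71.4%, beside 7.07%). Windows of Nuf2, Nusap1, Mad2l1 and Birc5 held neither motif. Those of Nek2 and Ccnb1 held 2 CCAAT boxes and no CHR, and that of Cenpe held 1 CCAAT box and no CHR. A match is a description of these letters, not a measured binding site. The stretches below run 5′ to 3′ on the gene's strand and are shown for 3 of the members with the largest negative fold changes, for Mki67, and for the 2 with the smallest negative ones, with both motifs in capitals.
Ttk: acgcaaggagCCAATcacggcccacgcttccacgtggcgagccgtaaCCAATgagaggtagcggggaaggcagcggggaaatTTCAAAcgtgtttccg
Ncapd2: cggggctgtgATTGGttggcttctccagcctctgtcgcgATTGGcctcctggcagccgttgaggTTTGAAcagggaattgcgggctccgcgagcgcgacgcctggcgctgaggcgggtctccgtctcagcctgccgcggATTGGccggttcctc
Spc25: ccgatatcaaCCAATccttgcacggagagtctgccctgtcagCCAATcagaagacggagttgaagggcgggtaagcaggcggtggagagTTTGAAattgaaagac
Mki67: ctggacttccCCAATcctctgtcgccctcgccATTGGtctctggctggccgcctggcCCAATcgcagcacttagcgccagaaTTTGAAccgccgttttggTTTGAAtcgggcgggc
Cenpa: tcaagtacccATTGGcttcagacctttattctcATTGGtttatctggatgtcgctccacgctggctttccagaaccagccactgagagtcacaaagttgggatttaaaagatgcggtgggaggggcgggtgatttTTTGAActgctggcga
Plk1: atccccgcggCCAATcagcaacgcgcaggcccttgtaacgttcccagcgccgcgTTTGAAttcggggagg

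These stretches lie at chr9:83834614-83834711 on the plus strand for Ttk, chr6:125191620-125191773 on the minus strand for Ncapd2, chr2:69206174-69206278 on the minus strand for Spc25, chr7:135716462-135716577 on the minus strand for Mki67, chr5:30666767-30666917 on the plus strand for Cenpa and chr7:122159411-122159480 on the plus strand for Plk1. Those of Ncapd2 and Mki67 end before the RefSeq start, and the other 4 run past it into the first transcribed bases. The expression values come from another build, mm9 per the submitters' processing notes, and were joined to these windows by symbol. In the Ttk stretch the CCAAT boxes start at bases −65 and −28 and the CHR, on the opposite strand, at base 8. The Plk1 stretch has 1 CCAAT box at −14 and its CHR at 31. The stretches were picked among named members whose window held both motifs. That the motifs appear at both large and small differences was therefore fixed by the choice.

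The checkpoint and APC/C genes held the largest difference of the set. Ttk was at 9.12, 10.6 and 9.97 FPKM over the control days 8, 9 and 10 (all values by library follow this order), at 6.87, 6.09 and 6.05 across set A, and at 7.19, 6.45 and 6.29 across set B. All 6 mutant libraries lay below every control library. Its mean was 9.88 ± 0.725 FPKM in control (SD, n = 3) and 6.49 ± 0.454 in the mutants (n = 6), a log2 fold change of −0.54 ± 0.071 (SE, limma adjusted p = 0.0167). The call was lost without the day-9 control library (adjusted p = 0.0941), without the day-10 control library (adjusted p = 0.102) and with libraries rescaled to equal totals (adjusted p = 0.0703). It held in the other 7 fits that each left out a library.

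Ube2c, the ubiquitin-conjugating enzyme of APC/C, was the most abundant member, at 210.1, 263 and 241 FPKM over the control days, 193, 187.5 and 185 across set A, and 199.5, 206 and 163.5 across set B. All mutant libraries were below the lowest control (log2 −0.33 ± 0.097, adjusted p = 0.119, not passed). Cdc20, the APC/C activator, and Bub1b, the checkpoint protein BUBR1, were also below control in all 6 mutant libraries, with log2 differences of −0.16 and −0.20. Bub1 and Mad2l1, the kinetochore kinase and the MAD2 checkpoint protein, overlapped with control. The 6 genes of this role had a median log2 difference of −0.23, and Ttk alone passed.

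**Figure D3:**
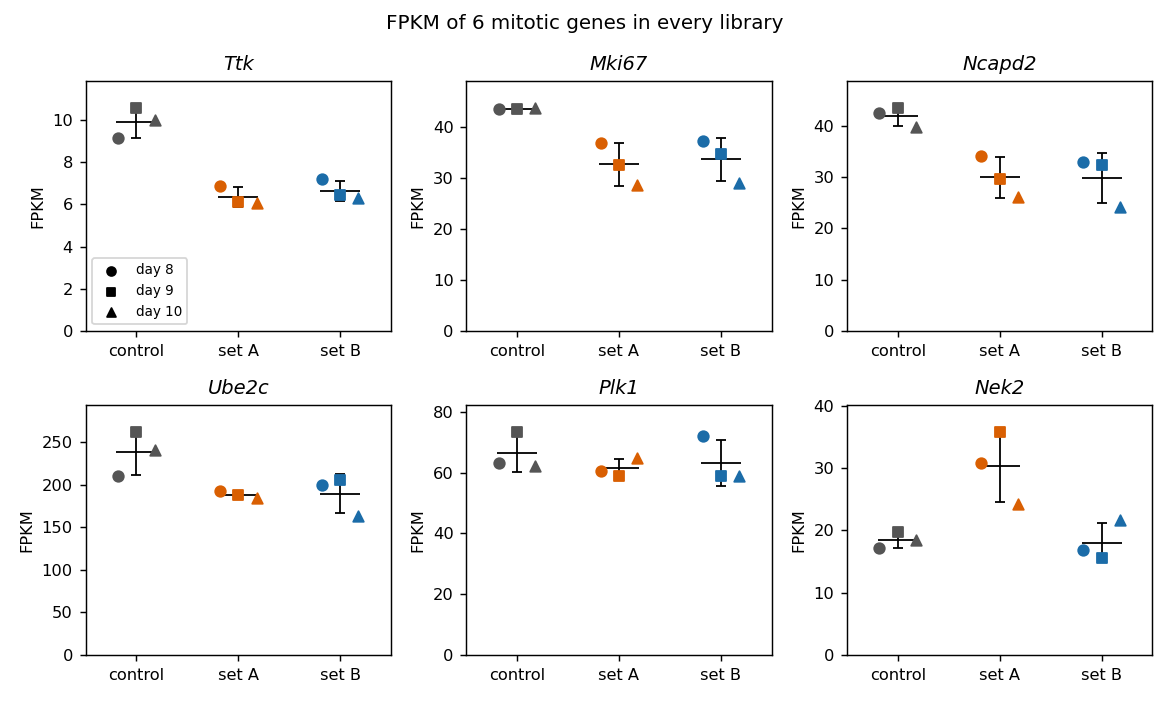
FPKM of Ttk, Mki67, Ncapd2, Ube2c, Plk1 and Nek2 in each library, with shape for the day and a bar for the group mean ± SD (n = 3 per group); axes start at 0. Control and mutant points do not overlap for Ttk, Mki67, Ncapd2 and Ube2c, they overlap for Plk1, and for Nek2 the 3 set A points lie above all others.

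Mki67 encodes Ki-67, the surfactant of mitotic chromosomes used as the standard marker of cycling cells. It was at 43.5, 43.6 and 43.8 FPKM over the control days, 36.9, 32.6 and 28.6 across set A, and 37.4, 34.7 and 29.1 across set B. The controls were nearly equal, every mutant was lower, and within each set the level was lower at each later day. The mean was 43.7 ± 0.141 FPKM in control (n = 3) and 33.2 ± 3.79 in the mutants (n = 6), 23.9% lower (log2 −0.39 ± 0.097), and the adjusted p of 0.0837 missed the threshold. Top2a, which encodes the topoisomerase that untangles sister chromatids, was at 67.9, 73.0 and 70.6 FPKM over the control days, 59.2, 50.4 and 52.9 across set A, and 63.3, 57.0 and 51.9 across set B. It did not overlap between control and mutants (log2 −0.34 ± 0.079, adjusted p = 0.0791, not passed).

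Condensins fold the mitotic chromosomes, and all 4 members of this role had every mutant library below every control. Ncapd2, a subunit of condensin I, was at 42.5, 43.5 and 39.8 FPKM over the control days, 34.2, 29.6 and 26.2 across set A, and 33.0, 32.3 and 24.2 across set B. The day-10 libraries of both sets were the lowest (log2 −0.48 ± 0.116 for both sets, adjusted p = 0.0808). Smc2, Ncapg and Smc4 had log2 differences of −0.36, −0.35 and −0.27. None of the 4 passed, and their median was −0.35.

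Among the 7 kinetochore and centromere genes 5 had no overlap with control. Spc24 and Spc25 encode the end of the NDC80 complex that joins it to the inner kinetochore. Spc24 was at 22.7, 26.8 and 24.9 FPKM over the control days, 17.5, 19.4 and 15.3 across set A, and 20.6, 19.1 and 15.5 across set B (log2 −0.45 ± 0.106, adjusted p = 0.0785). Spc25 was at 14.3, 18.01 and 16.9 over the control days, 12.002, 13.2 and 9.41 across set A, and 13.5, 13.6 and 9.01 across set B (log2 −0.46 ± 0.151, adjusted p = 0.151). Both were lowest at day 10 in each set. Their partners in the complex, Ndc80 and Nuf2, differed by −0.25 and −0.20. Cenpf and Cenpe, large proteins of the outer kinetochore, differed by −0.31 and −0.26 and were the 2 members with the lowest mean FPKM. Cenpa, the histone variant that marks the centromere, was at 49.4, 55.2 and 46.4 FPKM over the control days, 49.9, 49.0 and 42.1 across set A, and 48.7, 46.0 and 40.9 across set B. Its groups overlapped (log2 −0.12 ± 0.087, adjusted p = 0.452).

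The mitotic kinesins differed among themselves. Kif11, the motor that pushes the spindle poles apart, was at 25.3, 28.8 and 26.4 FPKM over the control days, 21.99, 17.4 and 18.4 across set A, and 21.8, 21.2 and 16.2 across set B, with no overlap (log2 −0.45 ± 0.11, adjusted p = 0.083). Kif23, the motor of the central spindle, and Kif4, a chromosome motor, had no overlap either, at −0.38 and −0.22. Kif2c, which takes microtubules apart at the centromere, was at −0.24, with 5 of 6 mutant libraries below control. Kif22 was at 27.7, 31.7 and 26.3 FPKM over the control days, 26.7, 28.2 and 24.1 across set A, and 28.7, 26.1 and 21.5 across set B, so its groups overlapped (log2 −0.14 ± 0.101, adjusted p = 0.468). Kif20a, the motor that carries the passenger complex to the midzone, was at −0.13 and also overlapped. None of the 6 passed.

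The 5 genes of mitotic entry had a median log2 difference of −0.22, with Ccna2 the lowest of them. Ccna2, cyclin A2, was at 65.0, 75.5 and 68.7 FPKM over the control days, 58.5, 51.5 and 53.8 across set A, and 58.5, 54.3 and 47.7 across set B, with no overlap (log2 −0.36 ± 0.083, adjusted p = 0.075). Cdk1 and the B cyclins Ccnb1 and Ccnb2 differed by −0.20, −0.22 and −0.19, and Cdc25c, the phosphatase that activates CDK1, by −0.22. In each of these 4 the day-8 library of set B was the 1 mutant library that was not below the lowest control. None of the 5 entry genes passed. The Ccnb1 value is uncertain in part, since 4 pseudogenes in GENCODE M21 match it at 96.6% to 99.2% identity.

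Among the mitotic kinases, Aurkb, the kinase of the passenger complex, had no overlap (log2 −0.27, adjusted p = 0.0852), while Aurka, the spindle pole kinase, was at −0.18. Plk1, which acts at centrosomes, kinetochores and the midzone, was at 63.3, 73.6 and 62.3 FPKM over the control days, 60.7, 58.9 and 65.0 across set A, and 72.0, 58.9 and 59.0 across set B. Control and mutant libraries overlapped, and the log2 difference was −0.09 ± 0.088 (adjusted p = 0.606). With Cenpa, it had the smallest difference of the 43 lower genes.

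Nek2, the kinase that helps to part the centrosomes, went apart from all other members. It was at 17.2, 19.8 and 18.4 FPKM over the control days, 30.9, 35.9 and 24.3 across set A, and 16.8, 15.6 and 21.6 across set B. All 3 set A libraries lay above all 6 others, and set B overlapped with control. The log2 difference of set A from control was 0.67 ± 0.156 (limma adjusted p = 0.119) and that of set B from set A was −0.72 ± 0.156 (adjusted p = 0.948, unadjusted p = 0.00151), so neither passed over all genes. Its transcript overlaps the antisense gene Gm38037 over 298 bases in GENCODE M21, and the sources used here do not say whether the counting used strand.

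The passenger complex genes Birc5, Incenp and Cdca8 had log2 differences between −0.19 and −0.14. Birc5, which encodes survivin, was at 91.4, 96.8 and 91.3 FPKM over the control days, 79.1, 82.4 and 79.5 across set A, and 91.8, 77.0 and 81.0 across set B. The day-8 library of set B was within the control range and the other 5 were below it (log2 −0.19 ± 0.066, adjusted p = 0.166).

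Of the spindle genes, Nusap1, a microtubule bundling protein, had the largest difference at −0.38 (adjusted p = 0.0651), and Hmmr, Prc1 and Tpx2 were between −0.23 and −0.19. Prc1, the cross-linker of the central spindle, was at 26.3, 31.0 and 29.6 FPKM over the control days, 25.2, 24.6 and 22.8 across set A, and 27.7, 25.4 and 22.2 across set B (log2 −0.22 ± 0.083, adjusted p = 0.179). Here too the day-8 library of set B was the 1 mutant library that overlapped with control.

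Of the cytokinesis genes, Anln, the scaffold of the contractile ring, was at −0.38 with no overlap. Ect2, the exchange factor that activates RhoA at the division plane, was at 15.4, 17.7 and 14.4 FPKM over the control days, 14.4, 11.1 and 11.3 across set A, and 15.001, 16.1 and 11.4 across set B, and its groups overlapped (log2 −0.25 ± 0.125, adjusted p = 0.288). Foxm1, the transcription factor of the G2/M programme, was at 21.6, 24.6 and 19.95 FPKM over the control days, 18.6, 18.01 and 17.8 across set A, and 18.8, 19.2 and 16.3 across set B. Every mutant library was below control (log2 −0.27 ± 0.0785, adjusted p = 0.119). None of these 3 passed.

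Taken library by library, the mitotic genes were lower in each mutant library than in control. The median of the 44 log2 values, each minus its control mean, was −0.19, −0.29 and −0.33 by day within set A and −0.11, −0.20 and −0.42 within set B, while the control libraries were at −0.06, 0.09 and −0.01. The same median over all genes tested stayed between −0.02 and 0.01 in these 9 libraries. In set A, 39, 41 and 42 of 44 members were below the lowest control library at days 8, 9 and 10, and in set B 26, 39 and 43 were, beside 30.8% to 33.6% of all genes. Set B at day 9, which lay beside the controls on the first principal component, was thus inside the range of the mutants on these genes.

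**Figure D4:**
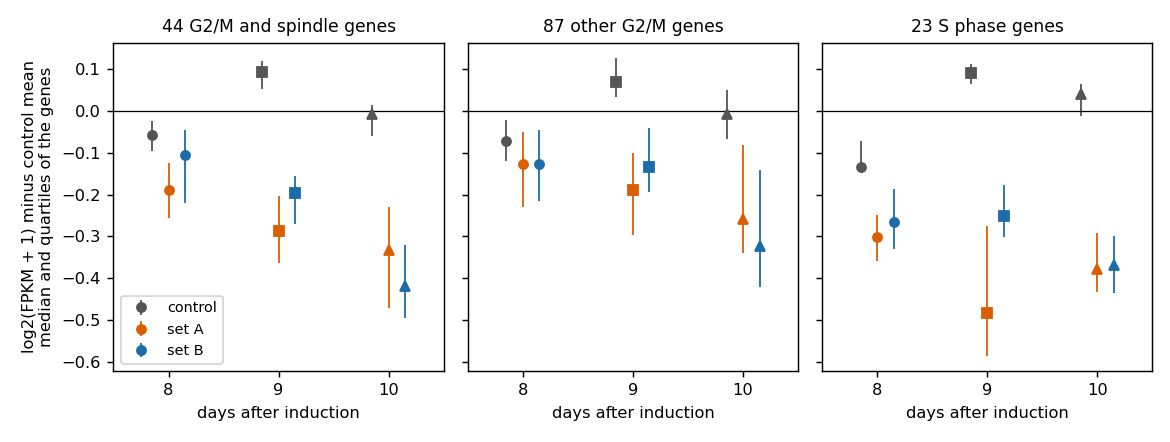
Median and quartiles over genes of log2(FPKM + 1) minus the control mean, by day after induction, for the 44 mitotic genes, 87 other G2/M genes and 23 S phase genes. For the mitotic genes both mutant sets lie lower at each later day, from −0.19 to −0.33 for set A and from −0.11 to −0.42 in set B; for the S phase genes set A is lowest at day 9.

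The later mutant libraries had the lower mitotic levels. In set A 25 of 44 members were lower at day 9 than at day 8 and lower again at day 10, beside 15.9% of all genes tested, and in set B 30 of 44 did, beside 9.94%. In control 1 of 44 did, beside 16.6%. Day 10 was the lowest of the 3 days for 30 members in set A and 41 in set B, beside 30.4% and 30.8% of all genes, and for 16 members in control, beside 31.4%. The median difference between day 10 and day 8 was −0.15 for set A and −0.29 for set B on the log2 scale, against 0.04 in control. With 1 library per group and day, a day cannot be told apart from the library that stands for it, and the difference in this order between groups was not tested. The control of day 9 was the highest of the 3 controls for 38 members. Against the control of the same day, 41, 43 and 42 members were lower by day for set A and 30, 44 and 43 for set B, beside 48.6% to 53.4% of all genes.

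Each set alone gave 1 passing member, again Ttk. In set A it was −0.57 ± 0.082 (limma adjusted p = 0.0453), a call kept only without set B at day 9 and lost without any 1 of the other 8, and in set B it was −0.51 ± 0.082 (adjusted p = 0.0405), a call kept without that library or the day-8 library of set A and lost without any 1 of the other 7. Equal totals ended both calls (adjusted p = 0.131 for set A and 0.166 for set B), as did testing without the filter (0.0696 and 0.0647) and fitting only the compared groups (0.0617 and 0.0935). Of all genes, 0.215% passed for set A (0.0909% lower, 0.124% higher) and 0.628% for set B (0.24% lower, 0.389% higher). At an unadjusted p of 0.05, 30 members were lower in set A, beside 8.89% of all genes, and 23 in set B, beside 8.42%. The median of the 44 was −0.26 for set A and −0.23 for set B, and the sets share their controls. In set A 38 members were below control without overlap (13% of all genes) and in set B 25 (12.5%). Nek2 was the 1 member above control without overlap in set A, beside 12% of all genes, and set B had none (9.81%).

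The test between the sets passed no member in limma, and 0.0% of all genes passed. Nek2 was the 1 member with an unadjusted p under 0.05, beside 3.11% of all genes in either direction and 1.45% lower. It was also the 1 member whose set B libraries all lay below those of set A (3.05% of all genes), and none had them all above (3.18%). Weighting the libraries passed no member either. The other 43 had differences of set B minus set A between −0.10 and 0.19 on the log2 scale, with standard errors of 0.0671 to 0.175. Differences of that size could not be told from 0 with 3 libraries per set.

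With set B at day 9 left out, 8 members fell in the comparison of both sets with control: Ttk, Ncapd2, Spc24, Kif11, Ccna2, Aurkb, Nusap1 and Smc2, beside 3.64% of all genes in the lower direction. With library weights 13 fell, beside 5.66%: those 8 and Mki67, Top2a, Ube2c, Kif23 and Anln. For set B alone library weights gave 7 members, beside 7.74%. With libraries rescaled to equal totals none passed, and the split of all calls went from 78 lower and 62 higher to 36 lower and 133 higher. In the 3 fits of both sets against control 43 of 44 members stayed negative, and in the weighted fit of set B alone 42 did.

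A second list of G2/M genes, grouped by role and without the 44, held 92 genes, of which 87 were in the table and tested. Of these, 2 fell and none rose, beside 0.645% of all genes as lower, and 79 of 87 were negative with a median of −0.20. Ckap2l, a spindle microtubule protein, was at 14.6, 15.3 and 15.5 FPKM over the control days, 11.4, 10.5 and 10.1 across set A, and 12.1, 10.6 and 10.2 across set B (log2 −0.45 ± 0.067, adjusted p = 0.026). Lin54, the DNA-binding subunit of MuvB that recognises the CHR, was at 7.68, 7.97 and 8.11 over the control days, 5.73, 5.76 and 6.29 across set A, and 6.49, 6.50 and 6.25 across set B (log2 −0.32 ± 0.054, adjusted p = 0.0418). Neither overlapped with control. Pttg1, which encodes securin, the inhibitor of chromosome separation, had the largest positive value of this list at 0.40 (adjusted p = 0.28) and was singled out after its values were seen. Leaving that day-9 set B library out, 11 of the 87 fell, beside 3.64% of all genes in the lower direction. Without control replicate 1, 2 or 3, set A replicate 2 or 3, or set B replicate 3 none did. Few of all genes were lower in those fits either, from 4 of 12028 to 27 of 12037.

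Beside these, 23 S phase genes had a median of −0.33, with 3 that fell, beside 0.645% of all genes tested, and all 23 negative, beside 50.3%. The S phase medians by library were −0.30, −0.48 and −0.38 across set A and −0.27, −0.25 and −0.37 across set B. A difference between the S phase and the mitotic lists was not tested.

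In bulk RNA, fewer dividing cells and less mitotic mRNA per dividing cell cannot be told apart. Markers of other cell types differed between the libraries too. All 7 tested T cell markers were negative and none passed (1 was lower at an unadjusted p of 0.05, median −0.64): their sum over 8 genes was 47.0 to 79.8 FPKM among controls, 59.8, 65.6 and 18.2 by day within set A, and 45.2, 60.2 and 17.8 within set B, lowest in the day-10 libraries that were also lowest for most mitotic genes. All 4 tested tuft cell markers were negative and none passed, also not at an unadjusted p of 0.05 (median −0.69). Over 6 tuft genes the sum was 16.6 to 30.0 FPKM among controls and 17.9, 15.7 and 6.17 by day within set A, with 9.63, 23.1 and 6.88 within set B. The sum of 5 macrophage markers was at most 4.67 FPKM among controls, 12.5 within set A and 10.5 within set B, both at day 9, and neither of the 2 tested passed, at an unadjusted p of 0.05 either. Of 10 Paneth cell markers, a cell type that does not divide, 5 fell and none rose (0.645% and 0.513% of all genes tested), with summed levels of 58250 to 97424 FPKM among controls, 16754 to 31986 within set A and 32811 to 39417 within set B. No Paneth, T cell or epithelial marker was at 0 in every library. Of 9 enterocyte markers 7 were negative and none passed (1 was lower at an unadjusted p of 0.05, median −0.36). Their sum was 3749 to 8416 FPKM among controls, 2988 to 5002 within set A and 3175 to 9342 within set B. The sum of 9342 was that of set B at day 9. For both sets against control, none of 6 goblet and 7 enteroendocrine markers passed (medians −0.06 and −0.04). Of 8 crypt base stem cell markers none passed (3 were higher at an unadjusted p of 0.05), 6 were positive, and their sum was 1146 to 1315 FPKM among controls, 732 to 1244 within set A and 918 to 1521 within set B. The 3 higher ones were Tnfrsf19, Lgr5 and Rnf43, with log2 differences of 1.38, 0.73 and 0.53. Most of the stem cell marker sum was Olfm4, 1 of the 2 negative markers (log2 −0.41). It was at 964 to 1139 FPKM among controls, 573 to 1003 within set A and 724 to 1202 within set B. The endothelial markers Pecam1, Cdh5 and Kdr were under 1 FPKM in all libraries, and 6 fibroblast markers summed to at most 0.117 FPKM among controls and 6.64 among mutants. The part of these cell types in the mitotic values was not tested.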

How the data were processed

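Poly(A) RNA of crypt epithelium was sequenced in 9 libraries, per the labels' protocols. The values the authors deposited are FPKM per gene symbol. The unit was read from the values: they are not whole, their sums differ between libraries, the smallest shrink with transcript length, and every library has the same median ratio, 1.00276, to the genes' geometric means, as median-of-ratios scaling gives. Per the submitters' processing notes, kallisto 0.46.1, DESeq2 1.40.1 and mm9 were named, without their roles. The annotation is not given in the sources used here.

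Libraries were grouped by title, and replicates 1, 2 and 3 are days 8, 9 and 10. limma 3.58.1 in R 4.3.3 (trend and robust options) fitted log2(FPKM + 1) by group over all 9 libraries. A gene needed 1 FPKM in 3 libraries, which left 12097, and Benjamini-Hochberg adjustment ran over these with a threshold of 0.05. Fold changes on this scale understate the change of low genes. The test of both sets against control was run on 10 simulated tables of 12097 genes with 200 changed genes. There 85.4% of changes of 1 and 95.9% of changes of 2 on the log2 scale were found, and 5.52% of calls were false. The simulated noise was independent between libraries, with no outlying library. Changes under 1 were not simulated, so these shares do not say how often differences of the members' size are found. The members and lists were chosen with earlier results of these data known. Members given in full are Ttk and Mki67, the most abundant of each role, those that passed, and the 5 lowest and 3 highest fold changes; the others are given by their difference to account for all 44. Matches to other transcripts of at least 200 bases at 95% identity were found with blastn 2.17.0 in GENCODE M21: besides Ccnb1 and Nek2, Ccna2, Kif20a, Kif4 and Ncapg share sequence with the genes Exosc9, Cdc23, Pdzd11 and Lcorl, Cdc25c with Gm3550, and Mad2l1 and Mki67 with the pseudogenes Gm42430 and Gm44521, which makes 9 members. Alternatives varied the pseudocount (0.1), the filter (none, or 5 FPKM), the scaling, the weights and the groups fitted, added the day as a block, and dropped each library in turn.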

Additional observations from a re-analysis of the deposited data

How the results depend on the processing

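In the comparison of both sets with control, the number of members that passed was 1 with all libraries, 0 to 8 when a library was left out, 0 with equal totals, 13 with library weights and 2 in a fit of the compared groups alone. Over all genes, 78 of 12097 were lower and 62 higher with all libraries. Leaving out a library gave 4 to 437 lower and 12 to 558 higher, and equal totals 36 and 133. Library weights gave 685 lower and 753 higher, and the compared groups alone 108 and 73. For set A against control the number of members was 1, then 0 to 1 when a library was left out, and 0 without the filter, with equal totals and with the compared groups alone. Lower calls over all genes were 11, then 2 to 47 when a library was left out. They were 7 without the filter, 8 with equal totals and 12 with the compared groups alone. For set B against control the number of members was 1, then 0 to 1 when a library was left out, 7 with library weights, and 0 without the filter, with equal totals and with the compared groups alone. Lower calls over all genes were 29, then 4 to 171 when a library was left out, and 936 with library weights. They were 25 without the filter, 15 with equal totals and 17 with the compared groups alone. Among the other G2/M genes, for both sets against control, the number that passed was 2, then 0 to 11 when a library was left out, 1 without the filter, 0 with equal totals and 17 with library weights. Without the filter, 38 of all 19704 genes were lower and 42 higher. The cause of these shifts was not tested. With the day as a replicate block, 1 member passed for both sets, 0 for set A and 0 for set B, and 1 of the other G2/M genes. Over all genes, 49 were lower and 48 higher for both sets, 5 and 11 for set A, and 24 and 39 for set B. Ttk then had a limma adjusted p of 0.107 for set A and 0.077 for set B. Same-day libraries of different groups correlated at −0.236 to 0.615 in their deviations from the group means, so the day did not pair them throughout. With this block and without set B replicate 2, an alternative added after the data were seen, 2 members passed for both sets, 0 for set A and 0 for set B, and 1 of the other G2/M genes. Over all 12000 genes, 180 were lower and 289 higher for both sets, 27 and 39 for set A, and 44 and 94 for set B. The median of the 44 stayed between −0.28 and −0.19 in every alternative run for it, and no named gene changed direction. With the longest transcript as the length, depth limited Cdc25c most among the members (271 fragments in its lowest library, a counting error of 6.07%). Spc25 (5.95%) and Ttk (5.86%) came next, and other transcript lengths could change this order.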

Other observations

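Genes of cell cycle arrest did not pass. Of 9 such genes (CDK inhibitors, the antiproliferative Btg1 and Btg2, and the p53 targets Ccng1 and Mdm2) 8 were tested, none passed in limma for both sets against control, 1 had an unadjusted p under 0.05, and the median was 0.03 on the log2 scale, with 5 positive. Cdkn1a, the CDK inhibitor p21, was at 48.6, 37.4 and 42.9 FPKM over the control days 8, 9 and 10, 38.1, 42.3 and 41.6 across set A, and 38.1, 61.8 and 43.2 across set B (log2 0.03 ± 0.147, adjusted p = 0.931). Set B at day 9 gave its highest value. Cdkn2a, which encodes p16 and ARF, was at or under 0.452 FPKM in all 9 libraries and was not tested.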
